A study of Mus musculus with 12 samples.

Results

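The 31 genes described here encode chaperones of the endoplasmic reticulum and the machinery of the unfolded protein response. They were chosen by symbol, taking every row of the deposited expression table that carried one of 31 listed names, out of 36121 genes in the table. Each of the 31 symbols was found. Ddit3 had a further row that was listed at 0 in all 12 mice, so its other row was used. Of the 31 genes, 30 had a mean of at least 1 TPM (an abundance scaled to the library and corrected for transcript length) over the 12 mice and entered the tests, as did 15259 genes in all. Trib3 lay below that mean and is given by its values.

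The endoplasmic reticulum is the compartment where secreted and membrane proteins fold. When unfolded protein builds up there, 3 sensors in its membrane respond. ATF6 is cut to a transcription factor, IRE1 (encoded by Ern1) splices the mRNA of the transcription factor XBP1, and PERK (encoded by Eif2ak3) slows translation, which favours translation of ATF4. ATF6 and spliced XBP1 act on chaperone, disulfide isomerase and degradation genes, here called the ATF6/XBP1 arm (19 genes). ATF4 acts on genes of amino acid supply, growth arrest and cell death, here called the ATF4 arm (8 genes). The remaining 4 genes, the 3 sensors and the phosphatase subunit Ppp1r15b, were put in neither arm. Splicing of Xbp1, cleavage of ATF6 and translation of ATF4 do not appear in gene-level RNA values.

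RNA was sequenced from the spinal cord of 3-month-old C57BL6 mice, 4 per genotype and 12 in all, to ask what loss of Tardbp in Gfap-Cre cells does to the cord. Tardbp encodes the RNA-binding protein TDP-43. Control mice were Tardbp-fl/fl without Cre, cHet mice carried Gfap-Cre with 1 floxed allele (Tardbp-fl/+), and cKO mice combined Gfap-Cre with a floxed pair of alleles (Tardbp-fl/fl). Each group held 2 males and 2 females. The promoter of Gfap, an astrocyte gene, drove the Cre, while the RNA came from whole cord with all its cell types, so fewer cells of a type and less RNA per cell cannot be told apart. Only the comparison of cKO with cHet is matched for Cre; against control, the Cre and the floxed deletion cannot be told apart.

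Each library held 15188 to 15384 genes of at least 1 TPM, and no pair of libraries had identical values. Read depth is unknown, because TPM does not keep it. Tardbp itself was at 171 ± 6.73 TPM in control, 170.4 ± 8.64 in cHet mice and 148 ± 5.06 in cKO mice (SD, n = 4), and fell by 0.20 on the log2 scale in cKO against control (limma adjusted p = 0.0113). The astrocyte gene Gfap was present in every library, at 1046 to 1546 TPM. The summed level of 12 astrocyte markers was 3628 to 3822 TPM in control, 3706 to 3939 in cHet mice and 4215 to 4692 in cKO mice. By limma, 4 of these 12 rose and 2 fell in cKO against control, while 8 of 10 microglial markers rose and 7 of 10 oligodendrocyte markers fell. In cKO against cHet the counts were 5 astrocyte markers higher and 2 lower, 6 microglial markers higher and 9 oligodendrocyte markers lower. In cHet against control limma called none of these 3 lists' genes, while the authors' deposited table had a Wald q under 0.05 for 1 oligodendrocyte marker. The part of these shifts in the members' results was not tested.

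Promoter sequences are shown first because the arms are named for the factors that bind such elements. Promoter windows came from RefSeq on GRCm38.p6, 250 bases before to 50 after a gene's start, and 27 of the 31 genes had one (Manf, Hyou1, Atf6 and Ppp1r15b did not). The ER stress element, CCAAT and CCACG with any 9 bases between them, to which ATF6 binds together with NF-Y, was searched on both strands. It was found in 8 of the 27 genes, all in the ATF6/XBP1 arm, and in 0.119% of all 32851 windows. The matches are printed 5′ to 3′ on the strand that holds CCAAT, with the fixed letters in capitals.
Hspa5: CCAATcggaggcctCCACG
Hsp90b1, first match: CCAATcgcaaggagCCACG
Hsp90b1, next match: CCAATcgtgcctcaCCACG
Calr: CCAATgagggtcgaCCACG
Canx: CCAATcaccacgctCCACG
Pdia6: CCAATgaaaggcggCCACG
Dnajc3: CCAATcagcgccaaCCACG
Creld2: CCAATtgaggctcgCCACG
Syvn1: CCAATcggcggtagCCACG

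In Hspa5 this match lay 65 to 47 bases before the start, in Syvn1 44 to 26 bases before it, and in Calr 162 to 144 bases before it. Hsp90b1 held a pair of matches on opposite strands, which did not overlap. The shorter relative, ATTGG and CCACG with any 1 base between them, searched after the first matches had been seen, was found in Herpud1 and Dnajb11 and in 0.0365% of all windows. The XBP1 element TGACGTGG was found in none of the 27 windows and in 0.676% of all windows. A match is a description of the letters and not evidence of binding, and a window without one says nothing about the factor.

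The composite element of C/EBP and ATF proteins, TGATGNAA, which ATF4 binds with a C/EBP partner, was found in 5 of the 27 windows and in 3.97% of all windows. It lay in 4 genes of the ATF4 arm and in Herpud1 of the ATF6/XBP1 arm, where it did not overlap the shorter ER stress element. Each match is printed 5′ to 3′ on the strand that holds TGATG, with the fixed letters in capitals.
Asns: TGATGaAA
Atf3: TGATGcAA
Chac1: TGATGcAA
Trib3: TGATGtAA
Herpud1: TGATGcAA

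The 250 bases before the start are printed for the main lumenal chaperone Hspa5 (chr2:34771840-34772089, plus strand), for Hsp90b1 with its pair of elements (chr10:86705445-86705694, minus strand), for Pdia3, a gene that passed the test in cKO and held no searched motif (chr2:121413652-121413901, plus strand), and for the ATF4 target Asns (chr6:7693210-7693459, minus strand). Each runs 5′ to 3′ on the strand of its gene, in GRCm38.p6 coordinates, and capitals mark the matches.
Hspa5: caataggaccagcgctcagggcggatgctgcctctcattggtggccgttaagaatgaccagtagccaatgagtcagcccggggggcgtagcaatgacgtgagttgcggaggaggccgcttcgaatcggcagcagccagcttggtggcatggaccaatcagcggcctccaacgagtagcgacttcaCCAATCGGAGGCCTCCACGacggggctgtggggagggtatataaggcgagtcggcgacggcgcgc
Hsp90b1: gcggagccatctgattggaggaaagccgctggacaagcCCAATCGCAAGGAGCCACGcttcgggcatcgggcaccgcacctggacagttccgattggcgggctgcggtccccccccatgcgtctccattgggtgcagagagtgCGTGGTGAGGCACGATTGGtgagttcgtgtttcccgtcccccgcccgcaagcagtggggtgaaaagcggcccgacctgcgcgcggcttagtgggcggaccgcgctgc
Pdia3: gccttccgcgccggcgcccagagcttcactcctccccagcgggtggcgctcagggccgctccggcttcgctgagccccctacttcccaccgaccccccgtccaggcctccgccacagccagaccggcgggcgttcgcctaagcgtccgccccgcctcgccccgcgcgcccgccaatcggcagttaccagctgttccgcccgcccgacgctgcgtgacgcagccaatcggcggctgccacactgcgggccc
Asns: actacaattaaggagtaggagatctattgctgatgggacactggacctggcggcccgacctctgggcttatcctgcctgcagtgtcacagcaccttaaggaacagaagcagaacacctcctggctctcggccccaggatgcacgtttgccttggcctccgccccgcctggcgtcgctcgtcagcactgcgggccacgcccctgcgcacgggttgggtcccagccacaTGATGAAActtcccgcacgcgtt

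In control cord the chaperones of the calnexin cycle and the main lumenal chaperones were the most abundant of the 31 genes. On the TPM scale Canx, the membrane lectin calnexin, was at 256 ± 7.51, Hsp90b1 (GRP94) at 201 ± 9.40, Calr (calreticulin) at 194 ± 8.87 and Hspa5 (BiP) at 144 ± 7.48 (SD, n = 4). The control ranges of Hsp90b1 (191 to 211 TPM) and Calr (185 to 205) overlapped, so their order is not larger than the spread. Manf, a secreted stress factor of the lumen, followed at 124 ± 6.85 TPM and Pdia3 at 102 ± 2.003. Within the ATF4 arm the levels ran from 86.8 ± 2.49 TPM for Atf4 and 76.3 ± 3.91 for Asns down to 0.814 ± 0.182 for Atf3 and 0.771 ± 0.340 for Trib3. The 3 sensors were at low levels, 12.9 ± 0.387 TPM for Eif2ak3, 12.8 ± 0.462 for Atf6 and 4.92 ± 0.0482 for Ern1.

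In cHet against control the measured levels of the ATF6/XBP1 arm were above control, led by Manf, Sdf2l1, Hspa5 and Creld2, but no single gene passed the test. All 19 tested genes of the ATF6/XBP1 arm had a log2 difference above 0, with a median of 0.20, beside 55.2% of all 15259 genes above 0 and a median of 0.01 over all genes. With limma and Benjamini-Hochberg adjustment, 0 of the 30 tested members were called at an adjusted p under 0.05, as were 0% of all genes. At an unadjusted p under 0.05, 12 of the 19 arm members were higher, beside 7.35% of all genes higher and 11.3% in either direction. None of the 7 tested genes of the ATF4 arm reached an unadjusted p under 0.05; their median was 0.06. In the authors' deposited table no member had a Wald q under 0.05, beside 0.156% of all genes there, and none had a likelihood ratio q under 0.05, beside 0%. With all libraries scaled to equal totals, 7 in place of 12 arm members had an unadjusted p under 0.05, and 17 of 19 stayed above 0. The count was 9 without cHet 4, where 17 of 19 lay above 0. It was 10 without cHet 1 or without control 2, and 14 without control 1. Most arm genes were high in the same mice, as given below, so the 19 genes are not separate observations.

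**Figure D1:**
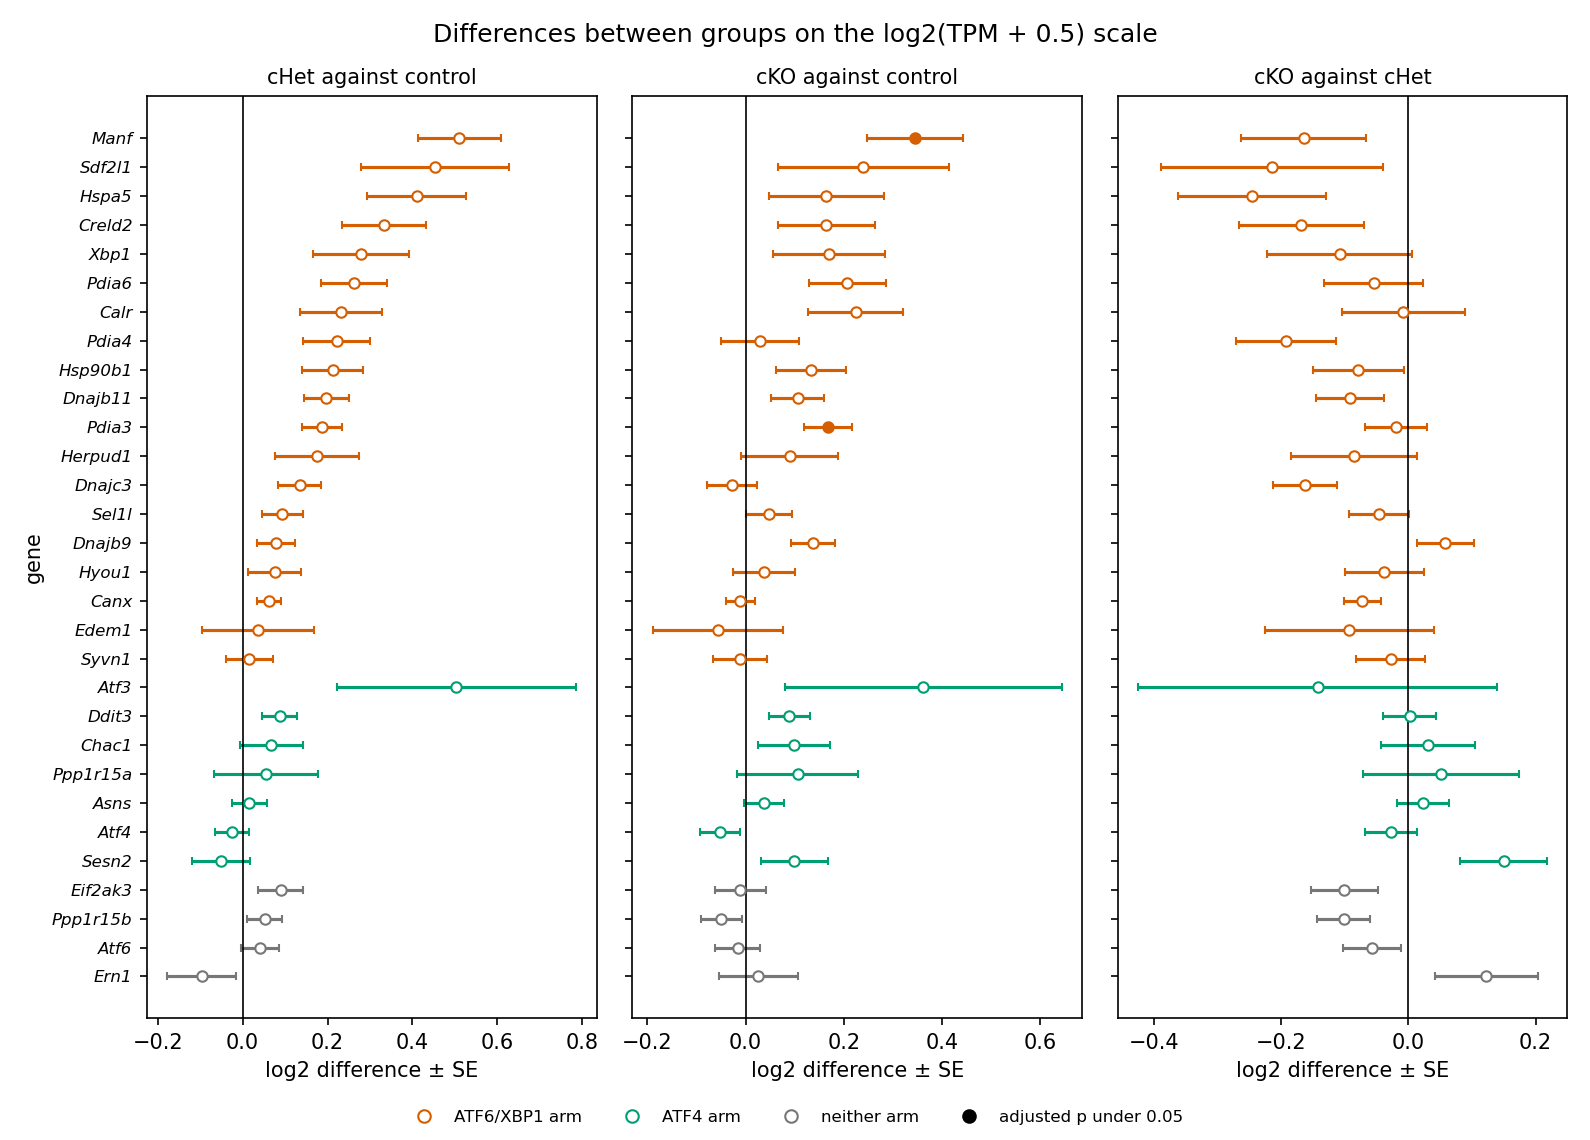
Log2 differences of the 30 tested genes (x axis, log2(TPM + 0.5), bars are limma's SE, n = 4 mice per group) in the 3 comparisons, with genes on the y axis grouped by arm. Filled points passed an adjusted p under 0.05: Manf and Pdia3 in cKO against control. All 19 genes of the ATF6/XBP1 arm lie above 0 in cHet against control and 18 lie below 0 in cKO against cHet.

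Among the lumenal chaperones, Manf had the largest difference in cHet against control. It lies on chromosome 9 (106838312 to 106891979, minus strand, GENCODE M21 on GRCm38). Control mice were at 115, 127, 122 and 131 TPM, cHet mice at 157, 187, 156 and 212, and cKO mice at 139, 166, 175 and 151. All 8 mice with Cre lay above all 4 controls. The log2 difference was 0.51 ± 0.10 (SE) in cHet against control (limma adjusted p = 0.127), 0.35 ± 0.10 in cKO against control (adjusted p = 0.0469) and -0.16 ± 0.10 in cKO against cHet (adjusted p = 0.421). Manf thus rose in cKO, a call that 13 of 24 other settings lost, with adjusted p-values from 0.0192 to 0.125. Leaving out single mice lost it for every control and for cHet 2, cKO 2, cKO 3 and cKO 4. Its q in the authors' deposited table of cKO against control was 0.00138 by the Wald test and 0.0176 by the likelihood ratio test.

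Hspa5, which encodes BiP, the Hsp70 of the lumen that also holds the sensors inactive, lies on chromosome 2 (34771970 to 34777547, plus strand). The 4 control mice were at 154, 142, 145 and 136 TPM. The cHet mice were at 209.6, 194, 149 and 222 TPM and the cKO mice at 143, 189, 170.3 and 147. Of the cHet mice, 1, 2 and 4 lay above every control and mouse 3 among them; of the cKO mice, 2 and 3 lay above and 1 and 4 among the controls. The difference in cHet against control was 0.41 ± 0.12 on the log2 scale (limma adjusted p = 0.246), and in cKO against control it was 0.16 ± 0.12 (adjusted p = 0.453). In cKO against cHet it was -0.25 ± 0.12 (adjusted p = 0.295), or 0.0492 when cHet 3 was left out.

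Sdf2l1 encodes a partner of the lumenal J proteins. Controls were at 16.3, 14.8, 15.9 and 15.3 TPM, cHet mice at 22.6, 23.4, 16.3 and 24.9, and cKO mice at 17.3, 25.3, 20.5 and 12.9. The range in cKO thus ran from below every control to the highest value of the 12 mice. Creld2, a lumenal protein with isomerase activity, was at 15.0, 15.3, 16.4 and 15.1 TPM in control, 19.4, 18.7, 17.04 and 23.9 in cHet, and 17.5, 16.1, 20.4 and 16.0 in cKO. All 4 cHet mice lay above the controls, while cKO 2 and cKO 4 lay within them. The log2 differences of Creld2 were 0.33 ± 0.10 in cHet mice and 0.16 ± 0.10 in cKO mice against control (limma adjusted p = 0.265 and 0.363).

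Hsp90b1, the Hsp90 of the lumen, was at 201 ± 9.40 TPM in control, 234 ± 20.9 in cHet mice and 221 ± 19.6 in cKO mice. The J protein Dnajb11 was at 40.0 to 43.9 TPM in control, 43.0 to 50.7 in cHet and 43.4 to 47.0 in cKO. Dnajc3, which inhibits PERK, was at 26.9 ± 0.480 TPM in control, 29.6 ± 1.64 in cHet mice and 26.4 ± 1.56 in cKO mice. Hyou1, a nucleotide exchange factor for BiP, was at 35.5 ± 1.49, 37.5 ± 2.85 and 36.5 ± 2.56 TPM.

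Dnajb9, a J protein induced through XBP1, was the 1 gene of its arm with a mean in cKO above that in cHet. Control mice were at 35.4, 34.5, 35.8 and 36.6 TPM, cHet mice at 35.2, 39.5, 38.8 and 36.9, and cKO mice at 37.7, 37.6, 40.5 and 40.9. All 4 cKO mice lay above all 4 controls, with a log2 difference of 0.14 ± 0.04 (limma adjusted p = 0.0830). Between cKO and cHet the difference was 0.06 ± 0.04 (adjusted p = 0.560). In the authors' deposited table its q for cKO against control was 0.0302 by the Wald test and 0.0428 by the likelihood ratio test.

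Of the lectin chaperones and disulfide isomerases, Pdia3 passed the test in cKO. Pdia3 is the thiol oxidoreductase that works with calnexin and calreticulin on glycoproteins, and it lies on chromosome 2 (121413775 to 121438687, plus strand). Control mice were at 105, 99.7, 102 and 102 TPM, cHet mice at 119, 120.3, 108 and 117, and cKO mice at 109.9, 123, 120.4 and 107. All 8 mice with Cre lay above the controls. Pdia3 rose by 0.17 ± 0.05 in cKO against control on the log2 scale (limma adjusted p = 0.0496), while its difference in cHet against control was 0.19 ± 0.05 (adjusted p = 0.208). Of 24 other settings 17 lost the call in cKO, with adjusted p-values between 0.0283 and 0.357. Leaving out single mice lost it for every control, for cHet 1, 2 and 4 and for cKO 1, 2 and 3.

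Calr, a lectin chaperone of the lumen, was at 205, 197, 191 and 185 TPM in control. The cHet mice were at 258, 227, 195 and 238 TPM and the cKO mice at 202, 257, 254 and 201. The means of both Cre groups were alike, 229 ± 26.5 in cHet mice and 229 ± 30.98 in cKO mice, and in each group part of the mice lay among the controls. Pdia6, an isomerase that dampens the sensors, was at 62.7 ± 2.48 TPM in control, 75.4 ± 5.87 in cHet mice and 72.8 ± 8.51 in cKO mice. Pdia4 was at 25.2 ± 0.698 TPM in control, 29.6 ± 3.02 in cHet mice and 25.8 ± 2.71 in cKO mice. Canx, the membrane relative of Calr, was at 256 ± 7.51, 267 ± 5.93 and 254 ± 5.57 TPM in the same order.

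The genes of ER-associated degradation, which retrotranslocates misfolded protein to the proteasome, gave smaller median estimates against control. In cHet the median log2 difference was 0.07, beside 0.21 for lumenal chaperones and 0.22 for lectin chaperones and isomerases. In cKO it was 0.02, beside 0.14 and 0.17. Single genes overlapped, as Herpud1 at 0.18 in cHet lay above Dnajc3, Dnajb9, Hyou1 and Canx. None of the 4 reached an unadjusted p under 0.05 in any comparison. Herpud1 was at 49.5 ± 4.86 TPM in control, 56.3 ± 9.13 in cHet mice and 52.7 ± 3.53 in cKO mice. Sel1l, the adaptor of the ubiquitin ligase, was at 57.0 ± 2.96, 60.9 ± 3.51 and 58.9 ± 1.14 TPM, and the ligase itself, Syvn1, at 16.7 ± 1.09, 16.9 ± 0.818 and 16.5 ± 0.568. Edem1, a mannosidase-like lectin, was at 14.5 ± 2.37, 14.7 ± 1.43 and 13.9 ± 2.33 TPM.

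Xbp1, both a transcription factor of the arm and a target of ATF6, was at 42.2, 35.0, 38.4 and 40.8 TPM in control mice. The cHet mice were at 50.9, 42.8, 42.1 and 55.1 TPM and the cKO mice at 39.4, 46.4, 53.4 and 38.2. Its log2 difference in cHet against control was 0.28 ± 0.11 (limma adjusted p = 0.390), and in cKO against control 0.17 ± 0.11 (adjusted p = 0.421). The groups overlapped. The sensors were not called in any comparison, and none reached an unadjusted p under 0.05. Their levels in cHet and cKO were 13.8 ± 0.673 and 12.8 ± 0.696 TPM for Eif2ak3, 13.2 ± 0.395 and 12.6 ± 0.434 for Atf6, and 4.59 ± 0.586 and 5.02 ± 0.188 for Ern1.

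**Figure D2:**
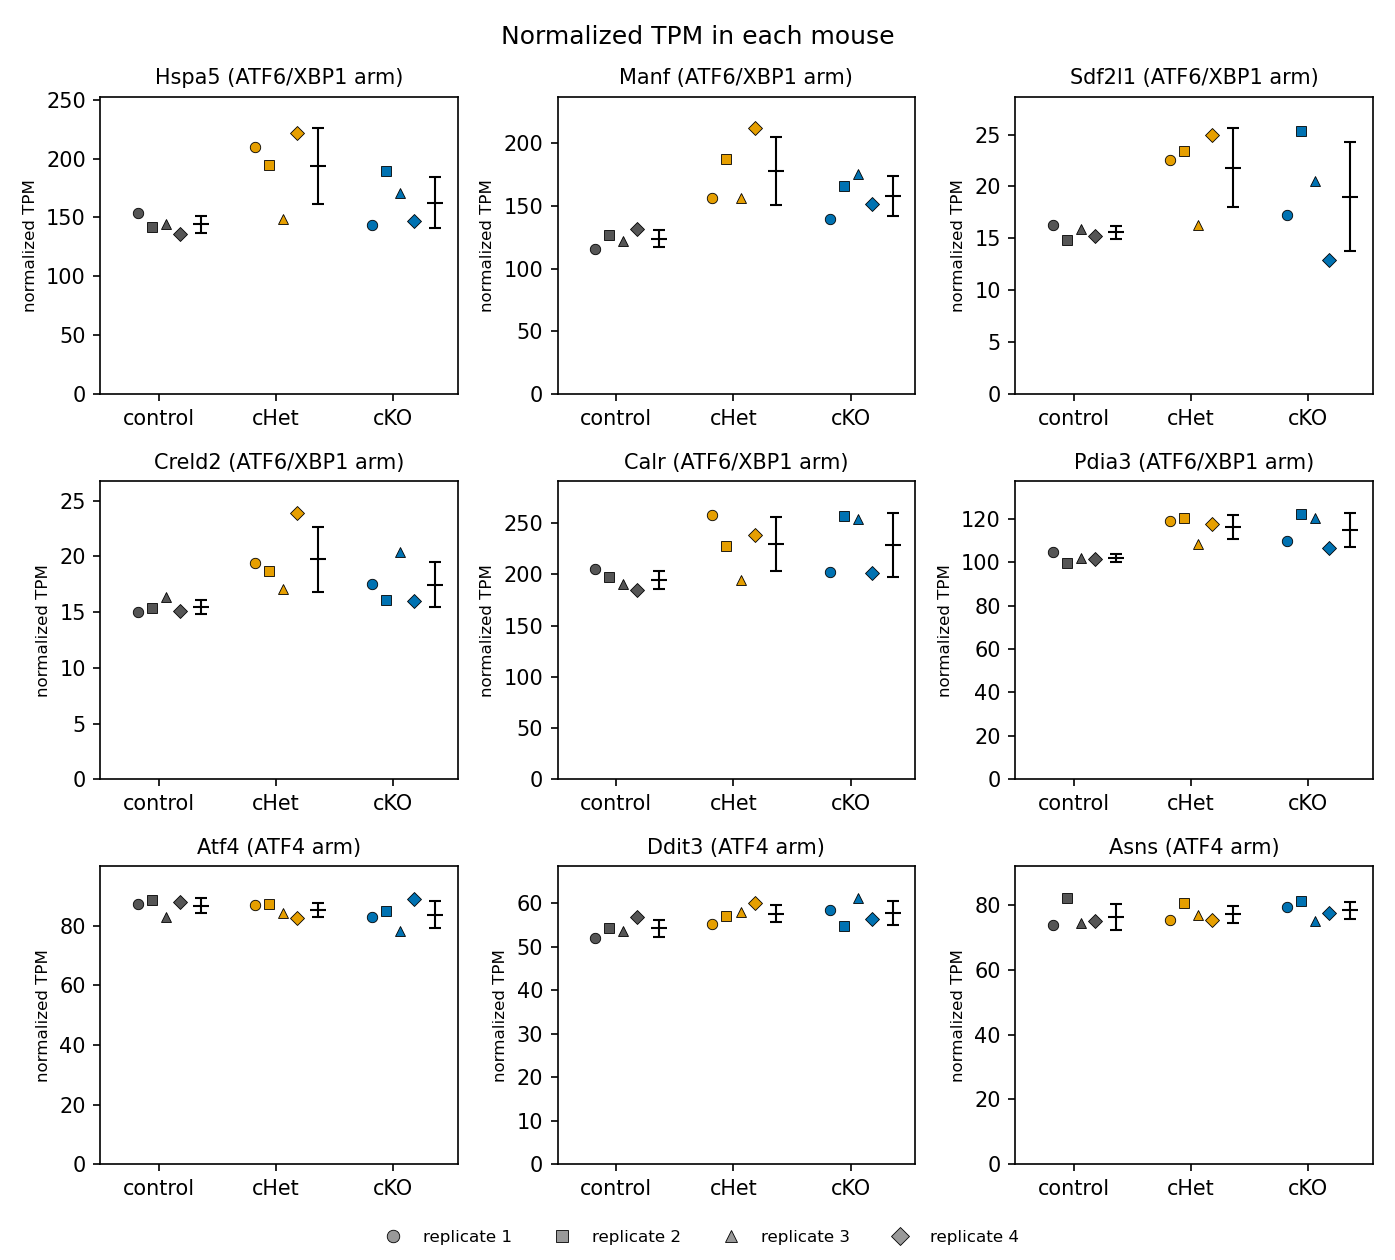
Normalized TPM (y axis, from 0) of 6 genes of the ATF6/XBP1 arm and 3 of the ATF4 arm in each of the 12 mice, with the mean and SD of 4 mice at the right of each group. Symbols mark replicate numbers, which link no mice across groups. Hspa5 spans 136 to 154 TPM in control and 149 to 222 in cHet, while Atf4 stays between 78.1 and 89.1 TPM in all mice.

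In cKO against control 2 of the 30 tested genes rose, Manf and Pdia3, and none fell. Over all genes 9.00% were called, 5.75% higher and 3.25% lower, so the members' share of 2 in 30 was near the background. Among the 19 genes of the ATF6/XBP1 arm 15 had a log2 difference above 0, beside 54.2% of all genes, with a median of 0.13, beside 0.01 over all genes. At an unadjusted p under 0.05, 5 arm members were higher (Manf, Pdia3, Dnajb9, Pdia6 and Calr) and none lower, beside 13.9% of all genes higher and 22.8% in either direction. That count was 2 under equal totals, 3 under equal totals without mitochondrially encoded genes, 3 without cKO 2 or without cKO 3, and 7 without cKO 4. In the ATF4 arm 6 of 7 tested genes lay above 0 in cKO against control, with a median of 0.10. None of the 7 had an unadjusted p under 0.05. Without cKO 2 the median was 0.08 in the ATF6/XBP1 arm and 0.11 in the ATF4 arm, so a positive median was not particular to the chaperone arm. The authors' deposited table had a Wald q under 0.05 for 4 of the 31 genes (Manf, Dnajb9, Pdia3 and Trib3), beside 10.2% of its genes, and a likelihood ratio q under 0.05 for 3 of them, beside 9.42%.

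The split of calls over all genes moved with the scaling, which also moves the members. As deposited, 878 genes were called higher and 496 lower in cKO against control. With equal totals these counts were 353 and 1667, and with equal totals over genes outside the mitochondrial genome 473 and 822. Under equal totals the median of all genes in that comparison was -0.07 and that of the ATF6/XBP1 arm 0.04, so the arm's median lay 0.11 above it, close to the 0.12 of the deposited scale. Neither Manf nor Pdia3 was called under equal totals, where Atf4, Canx and Ppp1r15b were called lower, at log2 differences of -0.14, -0.10 and -0.14. On the deposited scale those 3 genes stood at -0.05, -0.01 and -0.05.

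Compared directly, cKO cords held less of the chaperone RNAs than cHet cords by sign, but 0 of the 30 members were called, beside 5.01% of all genes (2.41% higher and 2.61% lower). In the ATF6/XBP1 arm 18 of 19 log2 differences were below 0, with a median of -0.09, beside a median of 0.00 over all genes and 52.0% of them above 0. At an unadjusted p under 0.05 the arm members Dnajc3 (-0.16 ± 0.05), Canx (-0.07 ± 0.03) and Pdia4 (-0.19 ± 0.08) had lower values, as had Ppp1r15b (-0.10 ± 0.04) in neither arm, while Sesn2 was the 1 member with a higher value, beside 18.2% of all genes in either direction and 9.46% higher. The arm's count was 7 without cHet 3, 5 without cKO 2 or under equal totals, and 1 without cKO 1 or without cKO 4. Dnajc3 reached an adjusted p of 0.0404 and Hspa5 one of 0.0492 without cHet 3, and Canx one of 0.0203 under equal totals; with all mice on the deposited scale the limma adjusted p-values were 0.0974, 0.295 and 0.203. By the authors' deposited table no member had a q under 0.05 in this comparison, beside 4.94% of its genes by the Wald test and 3.78% by the likelihood ratio test.

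None of the 7 genes of the ATF4 arm that limma tested was called in any comparison on the deposited scale; Trib3, the 8th, was below the filter and is given further on. Atf4 was at 87.4, 88.6, 83.1 and 88.1 TPM in control, 86.9, 87.3, 84.4 and 82.6 in cHet, and 82.9, 84.9, 78.1 and 89.1 in cKO. The log2 differences were -0.02 ± 0.04 in cHet mice and -0.05 ± 0.04 in cKO mice against control, and the groups overlapped. Ddit3, the cell death factor CHOP, was at 52.1, 54.3, 53.7 and 56.8 TPM in control, 55.4, 57.1, 58.1 and 60.04 in cHet, and 58.5, 54.9, 61.2 and 56.4 in cKO. Its differences were 0.09 ± 0.04 in each group against control (limma adjusted p = 0.460 in cHet and 0.227 in cKO).

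Among the enzymes of the arm, Asns, which makes asparagine, was at 76.3 ± 3.91 TPM in control, 77.1 ± 2.52 in cHet mice and 78.3 ± 2.597 in cKO mice. Chac1, which degrades glutathione, was at 6.80 ± 0.611, 7.13 ± 0.375 and 7.30 ± 0.503 TPM. Ppp1r15a, the stress-induced subunit that restores translation, was at 8.89 ± 1.33, 9.20 ± 0.623 and 9.65 ± 1.60 TPM, and its constitutive relative Ppp1r15b at 21.0 ± 0.305, 21.8 ± 1.15 and 20.3 ± 0.409. Sesn2, a regulator of mTORC1 under amino acid shortage, was at 9.12 ± 0.622 in control, 8.80 ± 0.682 in cHet mice and 9.80 ± 0.452 in cKO mice. Sesn2 was the 1 of the arm's 7 tested genes with an unadjusted p under 0.05 in any comparison. It stood at 0.15 ± 0.07 in cKO against cHet (limma adjusted p = 0.269).

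The 2 lowest genes of the arm varied most in proportion. Atf3, a repressor induced by stress and injury, was at 0.642, 0.672, 0.955 and 0.986 TPM in control, 0.934, 1.07, 1.92 and 1.64 in cHet, and 1.39, 0.719, 0.671 and 2.42 in cKO. The cKO mice with low chaperone RNA, 1 and 4, had its higher values in that group. Trib3, a pseudokinase that binds ATF4, was at 1.04, 0.520, 0.437 and 1.09 TPM in control, 0.392, 0.675, 0.399 and 0.518 in cHet, and 0.182, 0.295, 0.136 and 0.258 in cKO. All cKO values lay below all others. In the authors' deposited table the q of Trib3 for cKO against control was 0.0364 by the Wald test and 0.0432 by the likelihood ratio test. With no filter on low values, limma gave a log2 difference of -0.79 ± 0.18 (adjusted p = 0.0353), which the added 0.5 TPM understates at this level.

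Groups that did not overlap give the same comparison in another form. In cHet against control 5 members lay higher in every cHet mouse than in any control mouse (Manf, Creld2, Pdia3, Pdia4 and Pdia6), beside 4.12% of all genes, and none lay lower in every mouse, beside 2.10%. Between cKO and control 3 members did so (Manf, Pdia3 and Dnajb9), beside 10.5% of all genes, a share near that of the members. The 1 member lower in every cKO mouse than in any control mouse was Trib3, which was below the filter, beside 6.59% of all genes tested. In cKO against cHet Trib3 was again the 1 such member, beside 5.33% of all genes lower and 6.14% higher.

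Within the Cre groups the mice differed among themselves in chaperone RNA. The median SD of log2 values over the 19 arm genes was 0.061 in control, 0.130 in cHet mice and 0.127 in cKO mice, beside 0.094, 0.106 and 0.093 over all genes. For 13 of the 19 genes the SD was larger in both Cre groups than in control, as it was for 35.3% of all genes. In the ATF4 arm this was so for 1 of 7 genes. The spread of 4 mice is itself imprecise, and no test of it was made.

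Taken mouse by mouse, the same animals were high for most arm genes. The number of arm genes above all 4 controls was 15 in cHet 1, 15 in cHet 2, 8 in cHet 3 and 16 in cHet 4. In the cKO mice it was 7, 14, 14 and 3 for replicates 1 to 4. Over all genes, 22.9% to 30.2% lay above all 4 controls in each of these 8 mice. In cHet 4 the median arm gene lay 0.28 above the control mean on the log2 scale, and in cHet 1 and cHet 2 it lay 0.19 and 0.17 above. It lay 0.17 and 0.18 above in cKO 2 and cKO 3, and 0.06, 0.04 and 0.03 above in cHet 3, cKO 1 and cKO 4. Of the high mice cHet 1, cHet 2 and cKO 2 were male and cHet 4 and cKO 3 female, and among the others cKO 4 was male and cHet 3 and cKO 1 female.

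**Figure D3:**
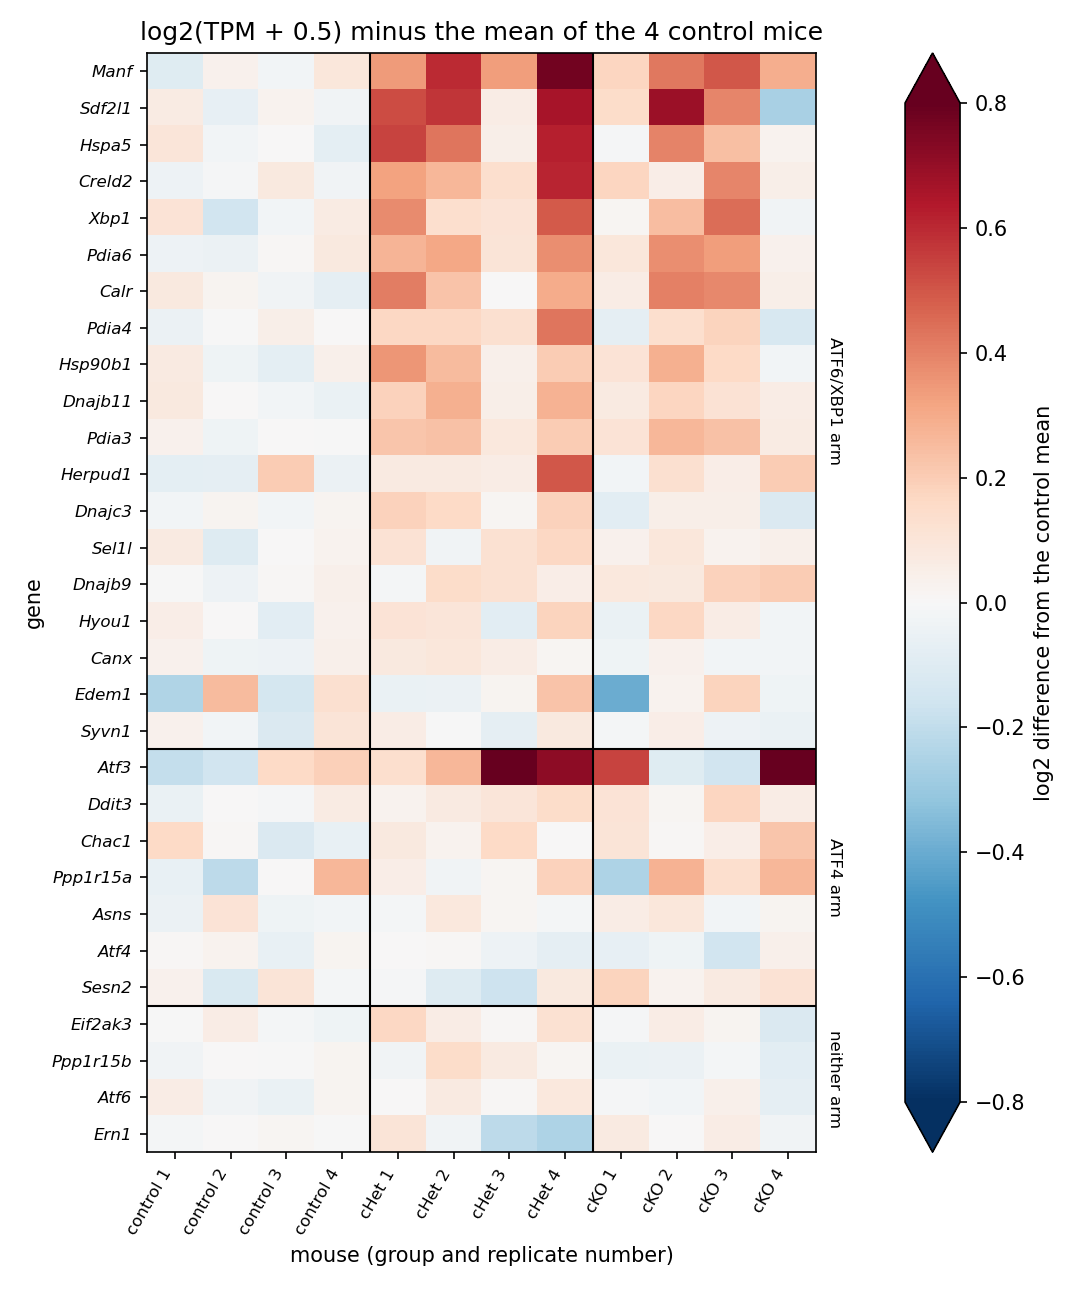
Each of the 30 tested genes (rows, ordered by their difference in cHet within an arm) in each of the 12 mice (columns), as log2(TPM + 0.5) minus the mean of the 4 control mice; colours are cut off at 0.8 in either direction. Most ATF6/XBP1 rows are warm in cHet 1, cHet 2, cHet 4, cKO 2 and cKO 3, with medians of 0.17 to 0.28. The medians are 0.03 to 0.06 in cHet 3, cKO 1 and cKO 4. Manf and Pdia3 stayed above every control in those mice, while Sdf2l1 lay below every control in cKO 4.

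Other quantities also differed between these mice. Within each Cre group the mice with low chaperone RNA had the larger share of mitochondrially encoded transcripts, 18.4% in cHet 3 beside 16.4% to 16.9% in the other cHet mice, and 19.9% and 20.4% in cKO 1 and cKO 4 beside 19% in each of cKO 2 and cKO 3. Among controls that share was 16.0% to 18.3%. With equal totals over the genes outside the mitochondrial genome, 17 of 19 arm genes were above 0 in cHet against control, with a median of 0.14. The part of this share in the result was not tested. The median of 9 immediate early genes, which respond to handling, was between -0.41 and 0.16 in the 8 Cre mice and between -0.14 and 0.20 in control, and was lowest in cHet 4. Of 12 markers of plasma cells and lymphocytes, which are rich in these chaperones, 8 were below 1 TPM on average, and the sum of all 12 was 30.4 to 63.1 TPM in control, 45.3 to 60.9 in cHet and 59.0 to 75.1 in cKO. The summed level of 10 microglial markers was 329 to 340.5 TPM in control, 344 to 368 in cHet and 428 to 463 in cKO, and their part in the results of cKO was not tested.

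Heat shock genes, for chaperones outside the endoplasmic reticulum, were also measured above control. The list is mainly cytosolic, but its Hspd1 and Hspe1 encode chaperones of mitochondria. On the deposited scale, of 17 such genes 0 were called by limma in cHet against control, where all 17 lay above 0, with a median of 0.16, and 12 were higher at an unadjusted p under 0.05, beside 7.35% of all genes. The authors' deposited table had a Wald q under 0.05 for 3 of them, beside 0.156% of its genes, and a likelihood ratio q under 0.05 for 0. Against control, 5 rose in cKO: Hspb1 (0.40 ± 0.06, limma adjusted p = 0.00244), Hspa8 (0.17 ± 0.04, adjusted p = 0.0213), Stip1, Hsph1 and Hspe1, again with all 17 above 0, and beside 5.75% of all genes called higher. Under equal totals only Hspb1 of these 5 was still called; the 5 signs were kept in all 24 settings. By mouse, the median heat shock gene lay 0.09 to 0.18 above the control mean in all 8 Cre mice. In cKO 4, where the ATF6/XBP1 arm stood at 0.03, the heat shock median was 0.13.

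**Figure D4:**
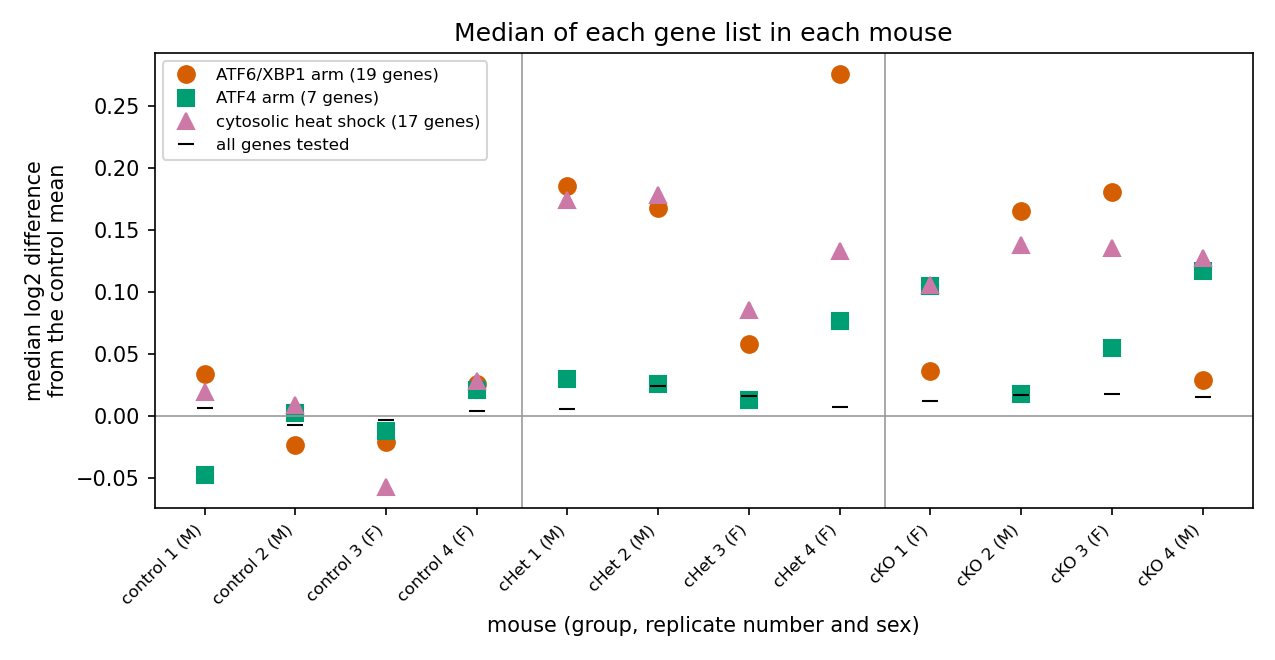
Median log2 difference from the control mean (y axis) in each of 12 mice (x axis, with sex) for the ATF6/XBP1 arm, the ATF4 arm, heat shock genes and all genes tested. The heat shock list is labelled cytosolic but holds the mitochondrial Hspd1 and Hspe1. Points are medians over genes with no error bar. The ATF6/XBP1 median is between 0.17 and 0.28 in 5 Cre mice and between 0.03 and 0.06 in the other 3, whereas the heat shock median is at least 0.09 in all 8.

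The likeness of other genes to Hspa5 was described by Pearson's r and Spearman's rho of log2(TPM + 0.5) over the 12 mice, which share the same libraries and scaling. Of the other 18 arm genes 10 had an r of at least 0.8, as did 0.256% of all other genes. Here all other genes are the 15258 tested genes without Hspa5, the arm genes included. The highest were Dnajb11 (r = 0.93, rho = 0.92), Sdf2l1 (r = 0.91, rho = 0.82) and Calr (r = 0.86, rho = 0.83). With the group means removed 6 of 18 reached 0.8, and 6 of 18 also without cHet 1 and cHet 4, the mice farthest from the median, beside 0.400% and 0.767% of all other genes. Dnajb9 had an r of 0.05. No gene of the ATF4 arm reached 0.8, and their r lay between -0.21 and 0.28. Of the 17 heat shock genes 2 reached 0.8. The median r was 0.57 for the heat shock genes, 0.82 for the 18 arm genes and 0.03 for all other genes. With the group means removed it was 0.18 for the heat shock genes and 0.70 for the arm genes. The sensor Eif2ak3, in neither arm, had an r of 0.79 (rho = 0.78).

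Outside the 31 genes, the 10 rows most like Hspa5 held 8 genes, as Ide and Cdk2ap2 each had a pair of rows with identical values. They were Hspa1a (r = 0.93, rho = 0.76), Ide (r = 0.92, rho = 0.82), Hspa1b (r = 0.89, rho = 0.67), Cdk2ap2 (r = 0.89, rho = 0.77), Taf1c, Btaf1, Ahsa2 and Ccng1 (r = 0.84 to 0.87). Hspa1a and Hspa1b, the stress-inducible cytosolic Hsp70 genes, are near-identical copies, so reads may be split between them, and their values are uncertain. Hspa1a was at a mean of 4.41 TPM in control, 6.65 in cHet mice and 5.54 in cKO mice.

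**Figure D5:**
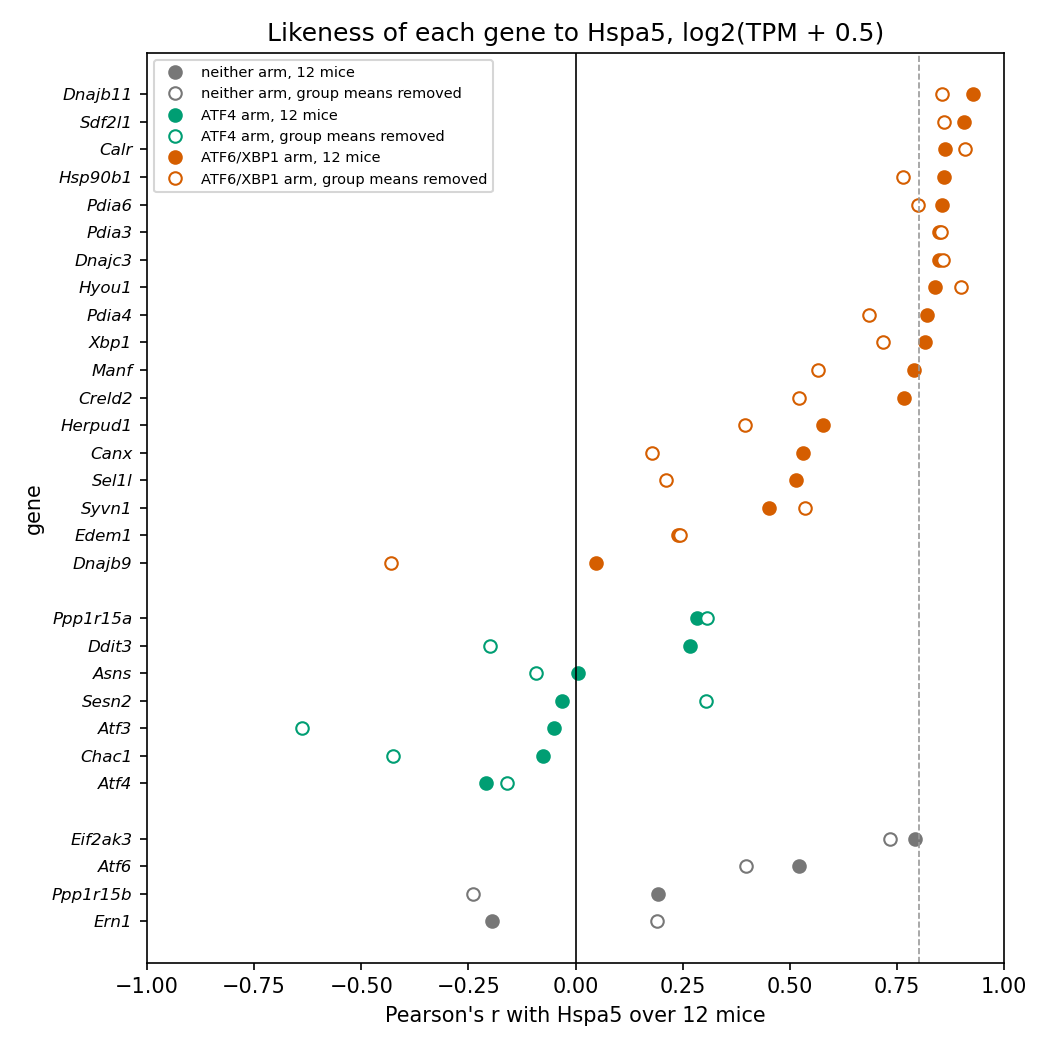
Pearson's r of each tested gene with Hspa5 (x axis) over 12 mice, by arm (y axis); open points have the group means removed, and the dashed line is 0.8. Filled points of 10 of 18 ATF6/XBP1 genes lie at or above 0.8, while those of the ATF4 arm lie between -0.21 and 0.28.

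The wider secretory pathway and other ATF4 targets were followed in 7 further lists. In cHet against control none of them held a gene called by limma, nor one with a q under 0.05 in the authors' deposited table. The counts in cKO against control are to be read beside the 9.00% of all genes that limma called there. For cKO against cHet that share was 5.01%. Against control, 1 of 20 other folding genes rose in cKO, the isomerase-like Txndc5 (0.12 ± 0.03, limma adjusted p = 0.0408), a call absent under all 3 other scalings. None of 15 other degradation genes was called by limma, and 2 had an unadjusted p under 0.05. Of 26 genes of translocation, glycosylation and export, Ostc, a subunit of the oligosaccharyltransferase, and Sec61b, a subunit of the translocon, rose by 0.17 ± 0.05 and 0.15 ± 0.04, while Sec11c of the signal peptidase fell by 0.23 ± 0.07. Each of these 3 calls was lost in 10 or more of 24 other settings. Their limma adjusted p-values were 0.0363, 0.0465 and 0.0494. Sec11c also fell in cKO against cHet, by 0.30 ± 0.07 (adjusted p = 0.0219), a call lost in 5 of 24 other settings, among them those without cHet 3, cKO 1 or cKO 4.

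Of 16 tested genes of stress signalling, Wfs1 and Mbtps1 were called. Wfs1, a membrane protein that restrains ATF6, was at 23.3 ± 0.874 TPM in control, 22.2 ± 1.46 in cHet mice and 38.0 ± 2.19 in cKO mice. It rose by 0.69 ± 0.06 in cKO against control (limma adjusted p = 2.56e-05) and by 0.76 ± 0.06 in cKO against cHet (adjusted p = 2.4e-05), and no value in cKO overlapped the other groups. Mbtps1, the site-1 protease that cuts ATF6, was at 39.9 ± 1.21, 40.1 ± 1.72 and 35.1 ± 0.652 TPM. It fell by 0.18 ± 0.04 in cKO against control (adjusted p = 0.0119) and by 0.19 ± 0.04 in cKO against cHet (adjusted p = 0.0127). Both calls held in all 24 other limma settings of each comparison, while the authors' deposited table had a q under 0.05 for 1 gene of this list in each.

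Other known ATF4 targets, of amino acid transport and synthesis, changed in both directions in cKO. Of 19 such genes 3 rose and 3 fell against control. Slc3a2 and Slc7a5, the chains of a transporter of large amino acids, rose by 0.38 ± 0.06 and 0.42 ± 0.11, and Cth, of cysteine synthesis, by 0.49 ± 0.13. Slc7a11, the cystine importer that pairs with Slc3a2, fell by 0.98 ± 0.10, from 3.28 ± 0.129 to 1.42 ± 0.0375 TPM. Phgdh and Psat1, of serine synthesis, fell by 0.41 ± 0.04 and 0.18 ± 0.05. The limma adjusted p-values of these 6 genes ran from 0.000163 (Slc7a11) to 0.04 (Psat1). The calls of Cth and Psat1 were lost in 10 other settings each and that of Slc7a5 in 9, the direction being kept in all.

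In cKO against cHet 3 of the 19 rose (Slc3a2, Slc7a5 and Pck2) and 4 fell (Slc7a11, Phgdh, Psat1 and the glutamine transporter Slc38a2). Over all genes limma called 2.41% higher and 2.61% lower there. In this comparison the calls of Slc3a2, Slc7a11, Phgdh and Psat1 held in every other setting in which they were tested. Those of Slc7a5 and Slc38a2 were lost in 6 of 24 other settings each, and that of Pck2 in 7. None of 13 aminoacyl-tRNA synthetase and tRNA export genes, a further group under ATF4, was called in any comparison by limma or in the authors' deposited table; at an unadjusted p under 0.05 limma had 1 lower in cHet and 2 higher in cKO, each against control. Of 13 tested other targets limma called only Map1lc3b, of autophagosomes, in cKO against control (0.14 ± 0.03, limma adjusted p = 0.00805).

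Genes outside the members that held the full ER stress element were compared with the members that held it. Of 29 such genes 11 were tested. None was called in cHet against control, where 5 of the 11 lay above 0, while all 8 members with the element did. All 19 genes of the ATF6/XBP1 arm lay above 0 there, with or without the element. These counts therefore cannot separate the element from membership in the arm, and its part was not tested. In cKO against control Acacb rose and Calr4 fell (0.67 ± 0.08 and -0.73 ± 0.16, limma adjusted p = 0.000337 and 0.0139), and 4 of the 11 lay above 0, beside 5 of the 8 members.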

How the data were processed

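The table deposited by the authors holds normalized TPM (a length-corrected signal) for 36121 Ensembl gene rows in 12 spinal cord libraries, 1 mouse each. The submitters' processing notes name kallisto 0.44.0, sleuth 0.30.0 and GRCm38, while annotation, filters and batches are not stated in the labels. The q-values are p-values that the authors adjusted, taken from their deposited Wald and likelihood ratio tests. Rows averaging 1 TPM or more (15259) were fitted here as log2(TPM + 0.5) with limma 3.58.1 in R 4.3.3 (lmFit, eBayes with trend, two-sided, all 12 mice, no covariate). Benjamini-Hochberg adjustment ran over all of them, with a call under 0.05. The added 0.5 shrinks differences of low genes. The fit was tested on simulated data.

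Members and lists were chosen with earlier results of these data known. By rule all 31 members are named, up to 4 called genes per further list and direction (1 more, Hspe1, was added after its values were seen), and the 10 rows most like Hspa5. Acacb and Calr4 were likewise named after their values were seen. Alternatives were other pseudocounts, filters, scalings and models, sex as a covariate, and each mouse left out. Both comparisons against control share the control mice. Promoters came from RefSeq (GRCm38.p6) and gene positions from GENCODE M21.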

Additional observations from a re-analysis of the deposited data

Results flagged for a closer look

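Among 93 sets of 4 mice (31 genes in 3 groups), 5 held a mouse far from the other 3 by Dixon's criterion, where chance gives about 1 in 20 such sets. Herpud1 was at 56.8 TPM in control 3, beside 46.7 to 47.7 in the other controls, and at 70.0 TPM in cHet 4, beside 51.4 to 51.9 in the other cHet mice. Asns was at 82.1 TPM in control 2, beside 73.7 to 75.1. Pdia4 was at 34.1 TPM in cHet 4, beside 27.5 to 28.4. Dnajc3 was at 27.2 TPM in cHet 3, below the 30.1 to 30.6 of the other cHet mice.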

How the results depend on the processing

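Across all genes, the number called in cHet against control was 0, 2 with no filter and 28 by the Wald q of the authors' deposited table, and 0 to 1 with a mouse left out. In cKO against control it was 1374, and 815 (without cKO 2) to 1513 (without cHet 4) with a mouse left out. In cKO against cHet it was 765, and 532 to 715 with a mouse left out. No member was called in cHet against control in any setting run. In cKO against control the 2 members called became 1 with a pseudocount of 0.1, only the 2 groups compared or no filter (Trib3, tested only there, while Manf and Pdia3 were not called), 0 with median-of-ratios scaling, equal totals without mitochondrially encoded genes or sex as a covariate, 4 by the authors' deposited table (Wald q), and 0 to 2 with a mouse left out. Under equal totals 3 other members were called lower in cKO against control (Atf4, Canx and Ppp1r15b), and Manf and Pdia3 were not called. In cKO against cHet 0 members became 1 under equal totals and 0 to 2 with a mouse left out. The cause of these changes was not tested. Fits that leave a mouse out also hold fewer mice, and the part of that number was not tested either. No difference of a member reversed while called. No paired analysis was possible because the replicate numbers follow accession order and link no mice. Read depth is unknown, so the precision of low genes such as Trib3 and Atf3 cannot be separated from their variation between mice.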
